A study of Mus musculus with 4 samples.

Results

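The Nduf genes name the nuclear-encoded subunits of mitochondrial complex I and a few proteins related to it, and their transcripts were followed here in mouse mast cells stimulated with IL-18. The members were chosen by gene name alone: probes to which the array's design gives a gene name starting with Nduf, which came to 36 genes of 27962 gene names on the array, read by 51 probes (1 spot each) of 41174 gene probes. The family itself was selected on earlier results of these same arrays, so its ratios and its counts of called probes are a description, and nothing is concluded from their size against the shares over all probes given beside them. Of the 36 genes, 34 encode subunits of complex I. Ndufa4 is now assigned to complex IV and Ndufaf1 encodes an assembly factor that is not part of the finished complex. The defining markers of mast cells were measured in both colours: all 10 listed (Kit, Fcer1a, Ms4a2, Cpa3, Mcpt1, Mcpt2, Tpsb2, Cma1, Hdc and Gata2) were well above background on all 4 arrays. Their own log2 ratios of stimulated over control ran from -0.74 (Tpsb2) to 0.82 (Cma1), a wider range than that of the Nduf genes, and their part in the Nduf values was not tested.

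Mucosal mast cells, the mast cells of epithelia such as the gut lining, had been differentiated in vitro from mouse cells. Each of 4 biological replicates was hybridised to 1 array of 2 colours, with RNA of the IL-18 stimulated cells in Cy5 and RNA of their own unstimulated control in Cy3, so each array compares stimulated cells directly with their own control. The labels used here give no strain, cell of origin, IL-18 dose or length of treatment. Stimulated and control cells shared the same differentiation. The dye orientation was the same on every array, so a difference between the dyes at a probe cannot be told apart from the effect of IL-18. Replicates 1 and 2 were on 1 slide, replicates 3 and 4 on another.

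Complex I is the entry point of the respiratory chain: it takes electrons from NADH, passes them through a flavin and a chain of iron-sulfur clusters to ubiquinone, and pumps protons across the inner mitochondrial membrane. Its peripheral arm consists of the N module, where NADH is oxidised, and the Q module, where ubiquinone is reduced. The membrane arm holds the proton pumps, whose core proteins are encoded by mitochondrial DNA, surrounded by small accessory subunits from nuclear genes. Core subunits carry the chemistry and are shared with bacteria, while accessory subunits serve assembly and stability. In bulk RNA, fewer cells of a type and less RNA per cell cannot be told apart.

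Most Nduf probes had a slightly higher signal in the stimulated cells. The ratios are log2 of Cy5 over Cy3 after background correction and loess normalization within each array, so 1 unit is a doubling and 0 is the centre of probes of that brightness. Of the 51 probes, 48 were measured well enough to test (in 1 colour, well above background on 3 or 4 arrays). Their median log2 ratio was 0.21, against 0.02 over all 24104 tested probes, and their values ran from -0.24 to 0.58. At an adjusted p under 0.05 over all tested probes (limma), 28 Nduf probes were higher, 1 was lower and 19 were not called. The higher share was 58.3%, beside 18.1% of all tested probes, and the lower share 2.08%, beside 16.1%. The ratio was above 0 on 4 of 4 arrays for 33 of the 48 probes and below 0 on all 4 for 1, beside 33.4% and 24.9% of all tested probes. With each gene represented by its brightest tested probe, 18 genes were higher, 1 was lower and 17 were not called, with a median of 0.17. Over all 16970 genes, 19.7% were higher, 13.7% were lower and the median was 0.04. Leaving out replicate 2 reduced the higher genes from 18 to 8 and leaving out replicate 3 reduced them to 10, with no gene lower in either case (limma; 1 was lower at an unadjusted p under 0.05 in each). Rescaling the arrays to the same spread over all spots left 0 of all tested probes called (limma; 5870 of them, among which 18 Nduf probes were higher and 0 were lower, had an unadjusted p under 0.05).

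The arrays differed in how far the family stood above 0. The median of the 48 Nduf probes was 0.11 on replicate 1, 0.20 on replicate 2, 0.21 on replicate 3 and 0.30 on replicate 4. Above 0 were 38, 46, 44 and 43 of the 48 probes in that order, beside 62.4%, 51.9%, 52.5% and 50.8% of all tested probes. Replicate 1 was the lowest of the 4 for 33 Nduf probes and replicate 4 the highest for 32. Over all 24057 probes with 4 values, replicate 1 was the lowest for 22.6% and replicate 4 the highest for 28.2%. The reverse was more frequent there, with replicate 1 the highest for 41.8% and replicate 4 the lowest for 40.0%. Among the Nduf probes, replicate 1 was the highest for 8 and replicate 4 the lowest for 8. The spread of all tested ratios (median absolute deviation) also differed, at 0.10 on replicate 1, 0.21 on replicate 2, 0.19 on replicate 3 and 0.28 on replicate 4, and its part in the family's values was not tested. On the slide of replicates 1 and 2 the Nduf median was 0.17, on the other slide it was 0.27, and 42 of 48 probes had the same sign on both. The SD of a probe over the arrays had a median of 0.11 in the family and 0.10 over all tested probes.

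**Figure D1:**
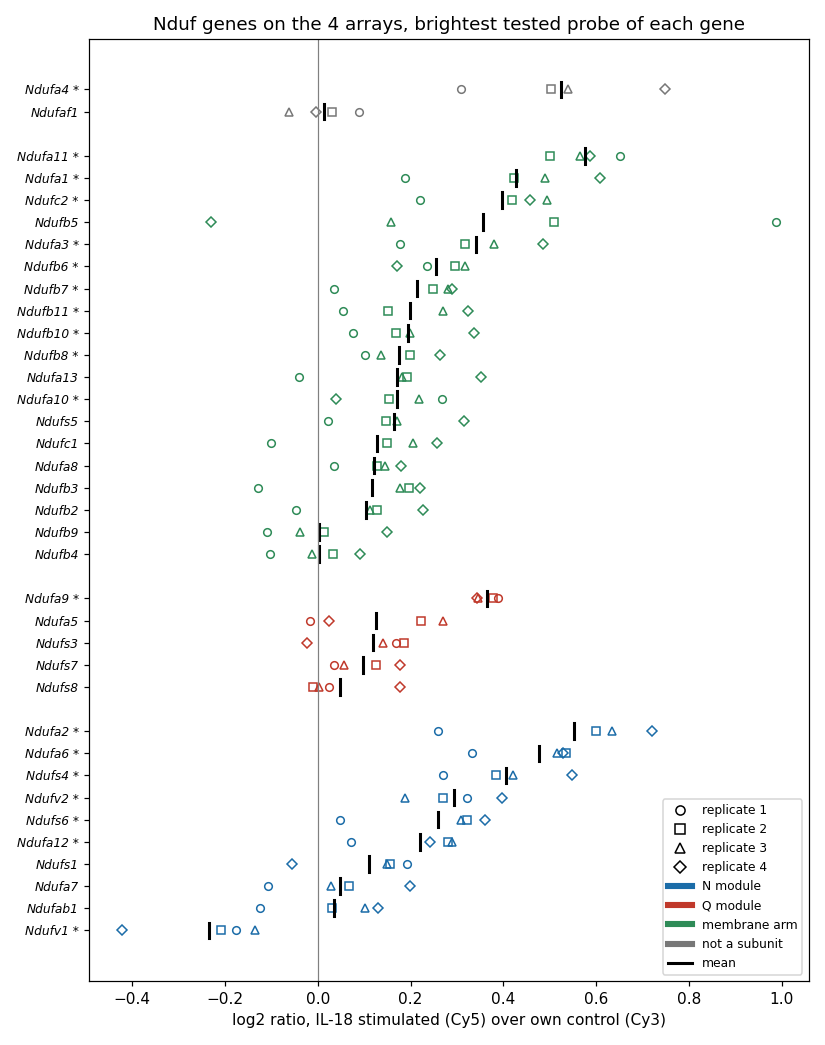
Log2 ratio (IL-18 stimulated, Cy5, over own control, Cy3, after loess) of the 36 Nduf genes at their brightest tested probe, with 1 open symbol per array, the mean as a black line, colours for the place in the complex and an asterisk for an adjusted p under 0.05. Most genes lie between 0 and 0.58, Ndufv1 lies below 0 on all 4 arrays (with median centring its mean is 0.85), and Ndufb5 runs from -0.23 to 0.99.

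The promoters of 4 members, picked by hand, are printed as examples and do not stand for the family. Ndufa11 had the highest ratio after loess, and Ndufa6 and Ndufa9 stood among the called subunits with ratios above 0.3 on every array. Ndufv1 was called lower (0.85 with median centring). Each line gives the 250 bases before the annotated start, 5′ to 3′, from RefSeq, and capitals mark matches to the motifs searched.
Ndufa11, GRCm38.p6 chr17:56717512-56717761, plus strand: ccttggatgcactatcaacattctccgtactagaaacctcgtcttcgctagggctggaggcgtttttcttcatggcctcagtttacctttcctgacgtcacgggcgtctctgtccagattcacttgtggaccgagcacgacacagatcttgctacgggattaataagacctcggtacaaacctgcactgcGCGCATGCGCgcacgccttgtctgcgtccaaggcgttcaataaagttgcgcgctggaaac
Ndufa6, GRCm38.p6 chr15:82354292-82354541, minus strand: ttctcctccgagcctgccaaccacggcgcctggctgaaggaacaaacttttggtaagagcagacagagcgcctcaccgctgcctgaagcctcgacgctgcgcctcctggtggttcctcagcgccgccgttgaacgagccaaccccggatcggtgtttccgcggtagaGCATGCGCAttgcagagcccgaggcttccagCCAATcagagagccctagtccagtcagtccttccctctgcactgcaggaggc
Ndufa9, GRCm38.p6 chr6:126849145-126849394, minus strand: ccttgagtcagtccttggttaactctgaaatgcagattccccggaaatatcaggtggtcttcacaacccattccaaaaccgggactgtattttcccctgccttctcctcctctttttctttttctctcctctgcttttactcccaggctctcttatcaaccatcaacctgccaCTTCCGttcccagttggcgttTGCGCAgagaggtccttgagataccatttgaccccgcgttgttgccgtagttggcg
Ndufv1, GRCm38.p6 chr19:4012756-4013005, minus strand: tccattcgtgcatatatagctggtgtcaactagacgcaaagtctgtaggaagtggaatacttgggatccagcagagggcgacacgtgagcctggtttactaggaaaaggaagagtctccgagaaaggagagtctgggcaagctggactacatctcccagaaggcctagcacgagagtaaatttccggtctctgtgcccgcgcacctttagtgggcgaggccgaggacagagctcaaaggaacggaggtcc

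The letters searched, on both strands, were TGCGCA (the core of the site of NRF-1, a regulator of respiratory genes, and the same on both strands), CGGAAG (the ETS core bound by GABPA), ATGGCG (part of the YY1 site) and CCAAT (the NF-Y box). GCATGCGC, from the centre of the NRF-1 site, was added after the windows were seen, and it can overlap TGCGCA. In Ndufa11 it occurs on both strands in overlap, starting 60 and 58 bases before the start. In Ndufa6 it lies 83 bases before the start and overlaps TGCGCA at 80, with CCAAT at 52. In Ndufa9, TGCGCA lies 56 bases before the start and CGGAAG, on the opposite strand, at 77. The stretch of Ndufv1 holds none of these letters, and neither do the promoters of Ndufa3, Ndufa4, Ndufa10 and Ndufv2, all called higher. Ndufa1, Ndufa4, Ndufc2 and Ndufs4 had mean ratios above that of Ndufa9 and were not printed. Their windows hold neither TGCGCA nor GCATGCGC. Whether matches go with the direction of the ratio was not tested. RefSeq windows of 300 bases (250 before and 50 after the start) were found for 33 of the 36 genes, 35 windows in all, and not for Ndufa2, Ndufb9 and Ndufs1. TGCGCA was in 11 of the 35 (31.4%), against 7.76% of all 32851 windows. ATGGCG was in 12 (34.3%, against 8.93%), CGGAAG in 9 (25.7%, against 16.9%), GCATGCGC in 3 (8.57%, against 2.71%) and CCAAT in 10 (28.6%, against 37.4%). A match is a run of letters and does not show binding.

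Of the 6 core subunits described here, Ndufv2 was higher, Ndufv1 was lower (with median centring it was above 0, at 0.85), and Ndufs1, Ndufs3, Ndufs7 and Ndufs8 were not called. These counts lie near the 19.7% higher and 13.7% lower of all genes. Their median was 0.10. The 28 accessory subunits included 16 higher and none lower, with 12 not called, and a median of 0.20. Whether core and accessory subunits differ was not tested.

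Ndufv1, which binds NADH and the flavin, had the lowest ratio of these genes on every array and was the only one called lower (0.85 with median centring). Its log2 ratio was -0.18, -0.21, -0.14 and -0.42 on replicates 1 to 4, a mean of -0.24 ± 0.13 (SD, n = 4, limma adjusted p = 0.0243). All 4 arrays were below 0, and replicate 4 lay furthest down. Its mean signal was 8127, 7438, 6108 and 6677 in Cy3 and 17634, 13540, 12635 and 12189 in Cy5. The typical Nduf probe had a larger excess in Cy5, with a median of 6383 to 8127 in Cy3 and 17280 to 22673 in Cy5. After the scanner software's own correction, the Ndufv1 signals were 15815, 13947, 13308 and 15620 in Cy3 and 14269, 12397, 12209 and 11812 in Cy5, so the control was higher on all 4 arrays. Its mean of 0.85 under median centring lay below the value for probes as bright: the median of the brightest 10% of all tested probes was 1.15. The call was lost without replicate 2 or replicate 3 (limma adjusted p = 0.0981 and 0.0650). Ndufv2, its partner in the same module and the carrier of an iron-sulfur cluster, went the other way, with 0.32, 0.27, 0.19 and 0.40 on replicates 1 to 4 and a mean of 0.29 ± 0.09 (SD, n = 4, limma adjusted p = 0.00747). The values of Ndufv1, all below 0, and of Ndufv2, all above 0, therefore did not overlap. No difference between these genes was tested. Without replicate 2 Ndufv2 just missed the threshold (limma adjusted p = 0.0504).

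The remaining core subunits had small ratios that were not called. Ndufs1, which holds several of the iron-sulfur clusters of the N module, averaged 0.11 ± 0.11 (SD, n = 4), positive on replicates 1, 2 and 3 and -0.06 on replicate 4. Ndufs3, a structural core protein of the Q module, averaged 0.12 ± 0.10 and was also below 0 only on replicate 4, at -0.02. Both passed the threshold when replicate 4 was left out, each with a mean of 0.17 (limma adjusted p = 0.0344 for each). Ndufs7, which carries the last cluster before ubiquinone, averaged 0.10 ± 0.07, and Ndufs8, another iron-sulfur protein of the Q module, averaged 0.05 ± 0.09. Ndufs7 was above 0 on all 4 arrays and Ndufs8 on 3 of them.

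The N module as a whole had 10 member genes, with a median of 0.24. Of these, 6 were higher, 1 (Ndufv1, 0.85 with median centring) was lower and 3 were not called. Over all genes, 19.7% were higher and 13.7% were lower. Ndufa2, a small accessory subunit with a thioredoxin-like fold, read 0.26, 0.60, 0.63 and 0.72 on replicates 1 to 4, a mean of 0.55 ± 0.20 (SD, n = 4, limma adjusted p = 0.00455). Replicate 1 was clearly the lowest and the other 3 lay close together. Ndufa6, a protein of the LYR family that holds the acyl carrier protein, read 0.33, 0.53, 0.52 and 0.53, a mean of 0.48 ± 0.10 (limma adjusted p = 0.00202). Ndufs4, whose loss causes Leigh syndrome in humans and a similar disease in mice, read 0.27, 0.38, 0.42 and 0.55, a mean of 0.41 ± 0.11 (limma adjusted p = 0.00403). In each of these 3 genes replicate 1 was the lowest array and no array was at or below 0. Ndufs6, a zinc-binding subunit at the junction of both modules, averaged 0.26 ± 0.14, and Ndufa12 averaged 0.22 ± 0.10 at its brightest probe. Neither was called without replicate 2 or without replicate 3, with limma adjusted p-values of 0.110 and 0.0973 for Ndufs6 and 0.113 and 0.104 for Ndufa12. The lowest accessory genes of the module were Ndufab1, the mitochondrial acyl carrier protein, at 0.03 ± 0.11 and Ndufa7 at 0.05 ± 0.13.

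Of the 5 genes of the Q module, Ndufa9 was higher and the other 4 were not called. Their median was 0.12, and 1 higher of 5 lies near the 19.7% higher of all genes. Ndufa9, which binds a nicotinamide nucleotide and sits where the arms meet, had a small spread between arrays. It read 0.39, 0.38, 0.35 and 0.34 on replicates 1 to 4, a mean of 0.36 ± 0.02 (SD, n = 4, limma adjusted p = 0.00216). Its mean signal was 9223, 8965, 7439 and 7381 in Cy3 and 31777, 25607, 22366 and 24124 in Cy5. Ndufa5, the other accessory gene of the module, split by array at -0.02, 0.22, 0.27 and 0.02, a mean of 0.12 ± 0.14 that was not called.

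The membrane arm was represented by 19 accessory genes, with a median of 0.17. Beside 19.7% higher and 13.7% lower of all genes, 10 of the 19 were higher, none was lower and 9 were not called. Ndufa11, which lies at the contact between complex I and complex III, had the highest mean of these genes after loess. With median centring it was at 1.35, in the middle of the 36 genes, whose median was also 1.35. The highest genes on that scale were Ndufa1 and Ndufa2, both at 1.80. After loess, Ndufa11 read 0.65, 0.50, 0.57 and 0.59 on replicates 1 to 4, a mean of 0.58 ± 0.06 (SD, n = 4, limma adjusted p = 0.00100), 1.49 times the control. Its mean signal was 1184, 1038, 849 and 901 in Cy3 and 3704, 2602, 2425 and 2699 in Cy5. All 4 arrays showed it at a similar size, replicate 1 included. Ndufa1, a short subunit with a single membrane helix, read 0.19, 0.42, 0.49 and 0.61, a mean of 0.43 ± 0.18 (limma adjusted p = 0.00739). Ndufc2, which pairs with Ndufc1, read 0.22, 0.42, 0.50 and 0.46, a mean of 0.40 ± 0.12 (limma adjusted p = 0.00466). Both were above 0 on all 4 arrays with replicate 1 lowest.

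Called with smaller ratios were Ndufa3 at 0.34, Ndufb6 at 0.25, Ndufb7 at 0.21, Ndufb11 at 0.20, Ndufb10 at 0.19, Ndufb8 at 0.17 and Ndufa10 at 0.17. Ndufb7 and Ndufb10 belong to the subunits on the intermembrane face that carry disulfide bonds. Many of these calls were lost without replicate 2 or without replicate 3, while the ratios stayed of similar size. Ndufb8 was 0.17 without replicate 2 and 0.19 without replicate 3, and Ndufb10 was 0.20 and 0.19. In the same fits the calls over all tested probes went from 8227 to 2291 and 2943. Ndufb8, Ndufb10, Ndufb11 and Ndufa10 lost the threshold without replicate 2 and without replicate 3, with limma adjusted p-values from 0.0987 to 0.173. Ndufb6 and Ndufb7 did so as well, from 0.0593 to 0.131. Ndufa3 lost it without replicate 2 alone (limma adjusted p = 0.0512), Ndufa10 also without replicate 1 (0.0953), and Ndufb7, Ndufb8, Ndufb10 and Ndufb11 also without replicate 4 (0.0570 to 0.0766). The higher genes that passed without each array in turn were 8 of 18: Ndufa1, Ndufa2, Ndufa4, Ndufa6, Ndufa9, Ndufa11, Ndufc2 and Ndufs4. The share of all higher genes on the array that did so was not computed, so this count is a description only.

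Ndufb5 stood apart by its spread, the largest of all tested Nduf probes at an SD of 0.52. It read 0.99, 0.51, 0.16 and -0.23 on replicates 1 to 4, a mean of 0.36 that was not called (limma adjusted p = 0.160). The arrays covered both signs, and replicate 1, the lowest array for most members, was the highest here. Its mean signal was 1514, 1192, 1158 and 1649 in Cy3 and 6409, 3050, 2526 and 2901 in Cy5, so the excess of Cy5 was largest on replicate 1. Without replicate 4 its mean was 0.55 and passed the threshold (limma adjusted p = 0.0323). The lowest membrane-arm genes were Ndufb4 and Ndufb9, a protein of the LYR family, with means of 0.0025 ± 0.08 and 0.0035 ± 0.11. Ndufb4 has a near-identical copy in the mouse genome, and which of them the probe reads is uncertain. Ndufb2 averaged 0.10 ± 0.11. The rest that were not called lay between 0.12 and 0.17 (Ndufb3, Ndufa8, Ndufc1, Ndufs5 and Ndufa13), and all 5 passed without replicate 1, with limma adjusted p-values from 0.0185 to 0.0483. Ndufb9 and Ndufa13, whose product is also known as GRIM-19, were below 0 with the scanner software's own ratio, at -0.11 and -0.06.

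The pair of members that are not complex I subunits differed. Ndufa4, a subunit of cytochrome c oxidase, read 0.31, 0.50, 0.54 and 0.75 on replicates 1 to 4, a mean of 0.53 ± 0.18 (SD, n = 4, limma adjusted p = 0.00418). It was the highest Nduf probe on replicate 4. Ndufaf1, which helps build the membrane arm, read 0.09, 0.03, -0.06 and -0.0047 and averaged 0.01 ± 0.06, with 2 arrays above 0 and 2 below.

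The design placed more than 1 probe on 11 of the 36 genes, and in 9 of them more than 1 was tested, 21 probes in all. Probes of 1 gene share the same RNA and are not replicates of the condition. The mean log2 ratio was above 0 for every one of these 21 probes after loess. All probes were called higher in Ndufa1, Ndufa11, Ndufa12 and Ndufs6, and some but not all in Ndufa3, Ndufa7, Ndufab1, Ndufb8 and Ndufc1. Of all tested probes, 18.1% were called higher, and on single arrays 50.8% to 62.4% were above 0. The 3 probes of Ndufs6 gave 0.25, 0.25 and 0.26, those of Ndufa1 gave 0.43 and 0.44, and those of Ndufa11 gave 0.58 and 0.55. In these genes the probes differed by less than the spread of each over the arrays.

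After loess, Ndufa3 had the largest gap between its probes. One gave 0.34 and was called, the other, a dim probe built on a cDNA clone, gave 0.04 with 0.02, 0.05, 0.03 and 0.04 on the 4 arrays. With the scanner software's ratio these probes gave 0.36 and 0.19, closer together than those of Ndufa7 at 0.06 and 0.31. Ndufa12 gave 0.22 at the brightest probe and 0.40 and 0.38 at the others. In Ndufa7, Ndufab1 and Ndufc1 the brightest probe was not called while the dimmer ones were: 0.05 against 0.25 in Ndufa7, 0.03 against 0.21 and 0.22 in Ndufab1, and 0.13 against 0.23 in Ndufc1. The choice of the brightest probe thus counts 3 genes as not called that have a called probe. Ndufb8 gave 0.17 (called) and 0.12 (not called). A further probe each of Ndufab1, Ndufs1 and Ndufs4, all built on cDNA clones, was well above background on 0 of 4 arrays in either colour and was not tested.

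**Figure D2:**
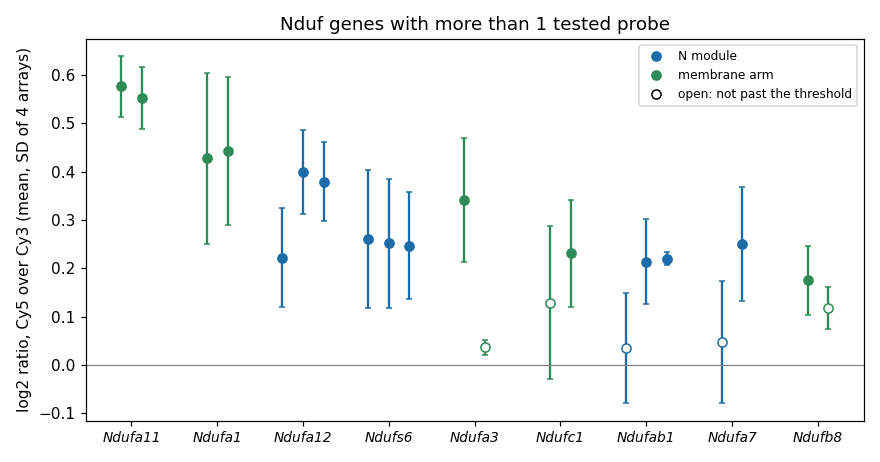
Mean log2 ratio (Cy5 over Cy3) of each tested probe in the 9 Nduf genes with more than 1, ordered within a gene from the brightest probe on the left, with bars for the SD of 4 arrays and open symbols for probes not past the threshold. All 21 means lie above 0, and on this scale the probes of Ndufa3 are the furthest apart, at 0.34 and 0.04.

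Most Nduf probes were bright, and brightness mattered for the ratio before loess. Of the 48 tested probes, 36 fell into the brightest 10% of all tested probes. Among those 36, 21 were higher and 1 was lower, with a median of 0.21, while 27.4% of all probes in that bin were higher and 25.5% lower, with a median of 0.0038. The 12 Nduf probes outside it had 7 higher and none lower, with a median of 0.22. In the dimmer bins of all tested probes, 2.78% to 27.8% were higher and 1.91% to 22.4% were lower. When the arrays were only centred on their median, without loess, the median of all tested probes was 0.43, and it climbed from -0.03 in the dimmest 10% to 1.15 in the brightest. The Nduf median was then 1.31, and that of the 36 bright probes was 1.39. Loess took between 0.16 and 1.41 off each Nduf probe. The scanner software's ratio, which has its own dye correction, gave an Nduf median of 0.21 and differed from the loess values by -0.23 to 0.15. How much of the trend with brightness comes from the dyes and how much from the cells cannot be told apart with 1 dye orientation.

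**Figure D3:**
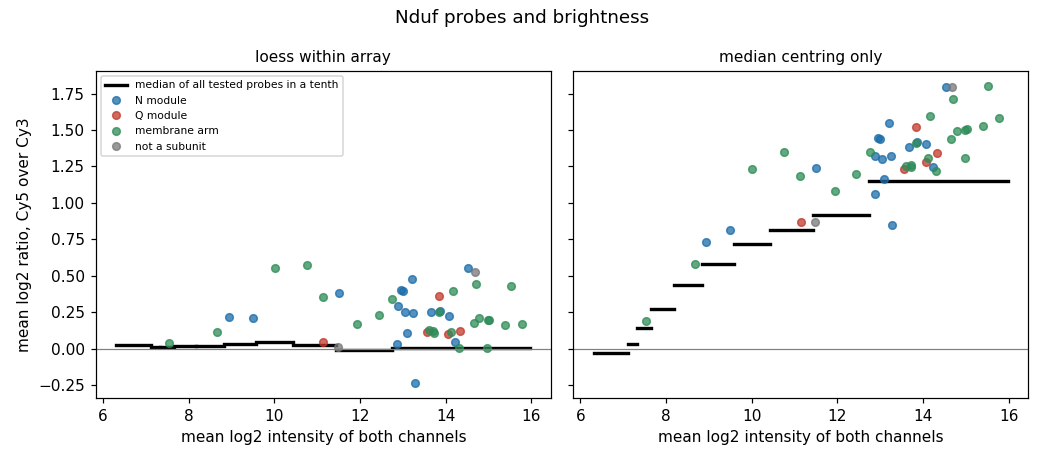
Mean log2 ratio (Cy5 over Cy3) against the mean log2 intensity of both channels for the 48 tested Nduf probes (points) and the median ratio of all tested probes in 10 brightness bins of equal size (black lines), after loess on the left and after median centring alone on the right. With median centring the lines climb to 1.15, and Ndufv1 lies at 0.85, below that line, while after loess it lies at -0.24.

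Of the genes described here, Ndufa11 was the highest and Ndufv1 the lowest both after loess and with the scanner software's ratio. With median centring Ndufv1 was still the lowest but above 0, at 0.85. Ndufa11, at 1.35, then lay in the middle of the genes (median 1.35), and Ndufa1 was the highest at 1.80. From loess to the scanner software's ratio, Ndufa13 went from 0.17 to -0.06, Ndufa1 from 0.43 to 0.27, Ndufb10 from 0.19 to 0.07 and Ndufb11 from 0.20 to 0.09. Ndufb8, Ndufb10 and Ndufb11 lost their call with the software's ratio, with limma adjusted p-values of 0.139, 0.351 and 0.223. Ndufa8 gained one, at 0.16 (limma adjusted p = 0.0496).

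**Figure D4:**
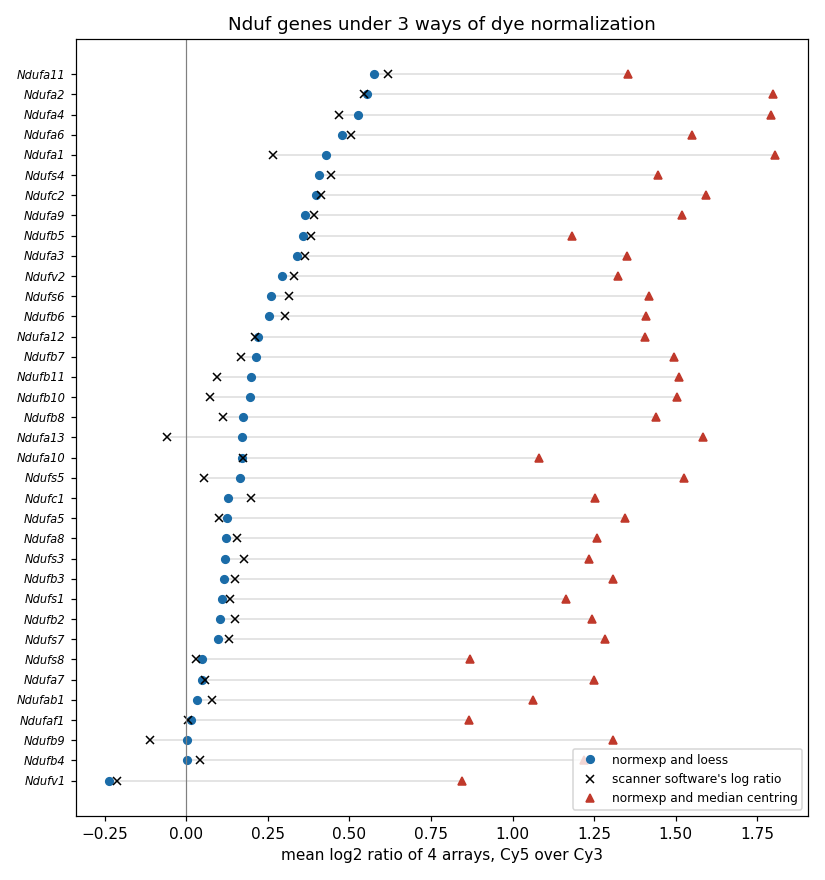
Mean log2 ratio (Cy5 over Cy3, 4 arrays) of the 36 Nduf genes after normexp and loess (circles), as the scanner software gave it (crosses) and after median centring (triangles), ordered by the loess value. Circles and crosses run close together, from -0.24 and -0.21 in Ndufv1 to 0.58 and 0.62 in Ndufa11, while the triangles are all above 0, at 0.85 for Ndufv1.

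Some genes that carry an Nduf symbol today have older names in the array's design and fall outside the rule. Ndufv3, an accessory subunit of the N module, had 3 such probes that disagreed: 0.22 (called higher), -0.25 (not called) and -0.37 (called lower). With Ndufv3 taken at its brightest probe, 7 N-module genes would be higher. Among assembly factors, Ndufaf5 was higher at 0.33 ± 0.03 (SD, n = 4), and Ndufaf3 at 0.12, Ndufaf4 at 0.06 and Ndufaf7 at -0.12 were not called. A dimmer probe of Ndufaf4 was called, at 0.19. None of the 7 complex I genes of mitochondrial DNA was found by name among the gene probes, so the core of the membrane arm was not analysed here.

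Genes that work next to complex I were called in both directions, at counts to be read beside the 19.7% higher and 13.7% lower of all genes. Of 12 measured assembly genes without an Nduf name, 2 were higher (Tmem126b at 0.43 and Tmem70 at 0.18, both needed to build the membrane arm), 1 was lower (Timmdc1 at -0.34) and the median was 0.01. Complex II, the other entry of electrons into the ubiquinone pool, had 6 measured genes with a median of -0.04. Its flavoprotein Sdha was lower at -0.56 ± 0.26, with -0.12 at its other probe, and its assembly factor Sdhaf4 was higher at 0.46 ± 0.07 (SD, n = 4 each). Of 10 measured genes of ubiquinone synthesis and function, Coq10b at 0.42, Coq7 at 0.37 and Pdss1 at 0.30 were higher. Coq9 at -0.41 and Coq8b at -0.21 were lower, and the median of the 10 was -0.02. The other tested probe of Coq7 was at 0.03. Of 12 regulators of respiratory genes, Tfb2m at 0.34, Tfb1m at 0.25 and Gabpb1 at 0.14 were higher, Esrra at -0.30 and Pprc1 at -0.20 were lower, and the median was -0.0025. Nrf1 itself averaged -0.20 ± 0.26 and was not called at its brightest probe, with -0.44 at its other probe. Other genes not called at their brightest probe also had probes far apart. Tfam ran from -0.79 to 0.07, Aifm1 from -0.63 to 0.01, Foxred1 from -0.61 to -0.21 and Sdhaf2 from -0.14 to 0.21. These lists are set beside the Nduf median of 0.17 per gene and the median of all genes of 0.04, and no difference between lists was tested. With median centring, of the genes of these lists called lower only Timmdc1 stayed below 0, at -0.05. Of the 17 called genes outside the rule, Ndufv3 and Ndufaf5 included, 7 kept the call without each array in turn: Ndufaf5, Tmem126b, Sdhaf4, Esrra, Tfb2m, Pdss1 and Coq10b. The other 10 lost it without replicate 2, with limma adjusted p-values from 0.0510 for Sdha to 0.178 for Gabpb1. The share of all called genes that kept their call was not computed.

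Each array held 43379 gene spots and 1639 control spots, and between 49.9% and 54.0% of gene spots were well above background in Cy3 and between 57.9% and 62.7% in Cy5. No Nduf spot was marked as an outlier or as saturated on any array. Across the 48 Nduf probes, the ratios of any 2 arrays had correlations from 0.28 (replicates 1 and 4) to 0.92 (replicates 2 and 3), against 0.62 to 0.91 over all tested probes. These correlations are over probes that share the same arrays and dyes, and are given as a description. Markers of other cell types were also read. Well above background in both colours on all 4 arrays were 1 of 5 T-cell genes (Cd3e), 3 of 5 macrophage genes, 1 of 4 neutrophil genes on the array, 1 of 3 eosinophil and basophil genes (Mcpt8), 1 of 4 fibroblast genes and 2 of 3 erythroid genes. Their log2 ratios lay between -0.16 (Csf1r) and 0.41 (Mcpt8), and their part in the Nduf values was not tested.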

How the data were processed

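Each of 4 arrays measured IL-18 stimulated mast cells (Cy5) against their own control (Cy3). The intensity values used are mean spot and median local background signals, deposited uncorrected as Agilent Feature Extraction 9.1 wrote them, per the file headers. The log10 ratios were made by the authors' software with background subtraction and dye normalization, per the file headers, and served as alternatives, as did the deposited series table of the same log10 ratios. No dates of scanning were used as a batch; slides were.

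Background was corrected with normexp (offset 50) and ratios by loess within each array, with control and outlier spots given no weight. Spots of 1 probe were averaged. Mean log2 ratios of 24104 probes were tested against 0 (limma 3.58.1 in R 4.3.3, two-sided, Benjamini-Hochberg over all of them, threshold 0.05), which is the paired test, since each ratio is 1 pair. Exact sign flipping over 4 arrays gives p = 0.125 at best, so it was not used. The number of arrays limits the precision. The labels call the arrays biological replicates.

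The brightest tested probe stood for a gene. Symbols came from the array's design, updated through RefSeq (GRCm38.p6) for 24913 of 43379 gene spots. The members and lists were chosen with earlier results of these data known. Named with values are the 3 highest and 3 lowest genes per role, core subunits, member genes whose probes disagree, and untested probes. Of other lists, up to 3 genes per direction are named, and some others whose probes lie far apart. Other members are named where a count includes them. Results of 1 gene that the naming rule finds and of 1 marker list are not reported here, and counts of members leave that gene out. The analysis was tested on simulated arrays with independent noise of the same SD on every array. That test does not cover the unequal spread of the real arrays or dye effects of single probes. Alternatives covered normalization, background, filters, thresholds, the slide and leaving out each array.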

Additional observations from a re-analysis of the deposited data

Results flagged for a closer look

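Of the 48 tested Nduf probes, 5 had 1 array far from the other 3 by Dixon's criterion. For independent, normally distributed values the criterion marks about 1 in 20 such sets. The 48 probes share the same arrays, and the share marked over all tested probes was not computed, so nothing is read from the count. In 4 of the 5 the odd array was replicate 1 and it was the lowest. Ndufa6 read 0.33 on replicate 1, with the nearest array at 0.52. Ndufs6 read 0.048 at its brightest probe there, with the nearest at 0.31. Ndufb3 read -0.13 there, with the nearest at 0.18, and Ndufb7 read 0.035, with the nearest at 0.25. In the fifth, a probe of Ndufa12 read 0.50 on replicate 4, with the nearest array at 0.35. Ndufb5, which had the largest spread of all, was not among them, since its 4 values are spaced evenly over their range.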

How the results depend on the processing

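Counts are given as Nduf probes higher and lower, all tested probes called, and Nduf genes higher and lower, with 28, 1, 8227, 18 and 1 as reported. Median centring instead of loess gave 48, 0, 14146, 36 and 0, and an Nduf median of 1.31. Ndufv1 then changed sign, to 0.85. An adjusted p under 0.01 gave 16, 0, 2794, 11 and 0. Scale normalization over all spots gave 0 in all 5 counts (limma, 18 Nduf probes higher and 0 lower at an unadjusted p under 0.05, and 32 and 1 as reported). It turned the spread of tested ratios on replicate 1 from the smallest of the arrays, 0.10, into the largest, 0.40. Scaling over tested probes only, an alternative chosen after seeing the data, kept 27 of the 28 higher probes. Leaving out 1 array gave 12 to 32 probes higher, 0 to 1 lower, 2291 to 9480 probes called, 8 to 22 genes higher and 0 to 1 lower. The 0 lower calls came without replicate 2 and without replicate 3 (limma, 1 lower at an unadjusted p under 0.05 in each). The Nduf median stayed between 0.19 and 0.24 without any 1 array. Without replicate 1 the counts rose, to 32 Nduf probes higher, 9480 probes called and 22 genes higher. Fits on 3 arrays have fewer degrees of freedom, and the cause of these changes was not tested.

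No call of a member gene changed with slide as a random block (correlation -0.06), outlier spots kept, no filter on dim probes, or a filter requiring both colours on all arrays. With the scanner software's ratio, or the deposited series table, 3 higher genes lost their call and 1 gained one. Moderation with trend and robust settings added 2 called genes and no background correction added 3, and neither lost any. With a normexp offset of 16, Ndufa10, Ndufb8, Ndufb10 and Ndufb11 just missed the threshold (limma adjusted p from 0.0515 to 0.0541). No paired analysis beyond the ratio itself was possible because each array holds 1 stimulated sample and its own control. No Nduf spot was saturated, and 3 Nduf probes were too dim to test.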
